A study of Mus musculus with 18 samples.

Results

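Haem is the iron-holding ring that haemoglobin uses to carry oxygen, and most of the haem of a mouse is made in the bone marrow by red cell precursors. Its synthesis begins in the mitochondrion, where an aminolevulinate synthase joins glycine to succinyl-CoA, continues in the cytosol, and returns to the mitochondrion, where ferrochelatase puts iron into the finished ring. Alas2 is the synthase of red cell precursors, encoded on the X chromosome, and its relative Alas1 serves the other cells. The 7 genes described here encode enzymes of that pathway: Alas2, then Alad, Uros, Urod and Cpox in the order in which they act, then Ppox and Fech. They were listed by name as enzymes of the pathway, with earlier results of these data known, and are 7 of the 17178 genes with a named probe.

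The samples were whole bone marrow of female C3H mice, in 6 groups of 3 arrays with 1 Cy3-labelled sample on each of 18 Agilent 4x44K arrays. Mice were 1 or 8 weeks old. At each age 1 group was unirradiated and the others were taken 6 h or 24 h after irradiation with 2 Gy of gamma rays at 0.6 Gy/min, with 3 mice at each time per the labels, so the p-values describe the spread between these arrays. No genotype or further treatment is named in the labels, and the marrow was not sorted. The 6 h and 24 h groups of an age are compared with the same 3 unirradiated arrays, so those comparisons are not independent of each other.

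Levels are log2 of the scanner's background-subtracted signal minus the 75th percentile of that array, so a level of 0 lies at that percentile. A level belongs to its own probe and is not set against the level of another gene. Differences are between group means on the log2 scale, ± the standard error of a limma fit over all 18 arrays, with p-values adjusted by the Benjamini-Hochberg method across 11888 tested genes. A gene is said to rise, fall or differ where that adjusted p is under 0.05. All 7 enzymes were well above background on 18 of 18 arrays and saturated on 0, and each has 1 probe except Fech, which has 2. Between 51.05 and 62.09% of 41174 probes were well above background on an array. Replicate 2 of the unirradiated 1-week group stood apart, with a skeletal muscle marker mean of 5.43 against -4.44 to 0.29 on the other arrays. Its cartilage marker mean also stood apart, at 4.25 against -4.06 to -0.7. The marrow carried red cell precursor RNA in every group: each of 19 erythroid markers with no haem enzyme among them was tested, and their mean level lay between 3.73 and 5.27. Of 6 hepatocyte markers with a probe, Alb, Apoa1, Ttr and Cyp2e1 were well above background on 0 arrays, Fgb on 14 and Tat on 18. Tat rose at 6 h in 1-week mice by 1.27 ± 0.32, and Fgb rose in 8-week mice by 0.82 ± 0.31 at 6 h and 1.37 ± 0.31 at 24 h. In whole marrow, fewer cells of a type and less RNA per cell cannot be told apart.

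Promoter sequences of 6 of the 7 enzymes were at hand from RefSeq (assembly GRCm38.p6). They were searched on both strands for the core bound by GATA factors, spelled as AGATAA or with a changed end as AGATAG, and in the same way as TGATAA or with that end as TGATAG, and for CCNCNCCC, the core bound by Klf1, a red cell transcription factor. The 250 bases before the start of Alas2, the enzyme that parted from the others in the measurements below, and of Cpox and of the second start of Uros, the other windows with a GATA match, are printed with the matches in capitals. Alas2 lies at chrX:150547167-150547416 on the + strand, Cpox at chr16:58669958-58670207 on the + strand and the Uros window at chr7:133702501-133702750 on the - strand.
Alas2: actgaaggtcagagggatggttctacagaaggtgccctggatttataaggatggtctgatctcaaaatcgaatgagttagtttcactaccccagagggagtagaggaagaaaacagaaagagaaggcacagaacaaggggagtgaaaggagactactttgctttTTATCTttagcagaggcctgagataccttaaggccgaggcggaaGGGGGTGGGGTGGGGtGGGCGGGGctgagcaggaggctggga
Cpox: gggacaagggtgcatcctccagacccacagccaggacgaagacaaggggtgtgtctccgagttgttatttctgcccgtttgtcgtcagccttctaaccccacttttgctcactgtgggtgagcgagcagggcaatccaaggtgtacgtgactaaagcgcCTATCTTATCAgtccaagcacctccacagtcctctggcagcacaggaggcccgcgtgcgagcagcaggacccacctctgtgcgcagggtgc
Uros, second start: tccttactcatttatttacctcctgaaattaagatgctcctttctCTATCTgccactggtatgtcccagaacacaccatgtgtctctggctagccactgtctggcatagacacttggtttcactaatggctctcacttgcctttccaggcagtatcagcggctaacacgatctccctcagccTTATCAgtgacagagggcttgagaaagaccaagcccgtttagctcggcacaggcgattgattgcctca

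Alas2 held 1 GATA match, 81 bases before the start, and 4 CCNCNCCC matches read on the opposite strand, 19 to 35 bases before it. The CCNCNCCC match nearest the start, at 19 bases, is parted by an unmarked base from the others, which overlap. Cpox held 2 overlapping GATA matches, 81 and 86 bases before the start, and the second start of Uros held 2, at 63 and 200 bases. The first start of Uros held 1 CCNCNCCC match and no GATA match, and Urod and Ppox held neither. The first start of Alad held 2 overlapping CCNCNCCC matches, at 49 and 51 bases, and no GATA match. The second start of Alad held 4 CCNCNCCC matches in 2 overlapping pairs, and no GATA match. The windows of the Alad starts overlap, and the pair at 203 and 205 bases is the pair of the first start. Over 32851 promoter windows of 250 bases, 26.5% held a GATA match, 45.9% a CCNCNCCC match and 8.2% both. Alas2 was the 1 enzyme of the 6 with both in a window. A match describes letters in a window and is not a binding site measured here.

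Unirradiated marrow of 1-week-old mice carried more RNA of 6 of the 7 enzymes than that of 8-week-old mice, and Alas2 was the exception. Of 11888 genes, 64.9% differed between the unirradiated ages and 37.5% were lower at 8 weeks. The median difference of the 7 enzymes, 8 weeks minus 1 week, was -0.52, beside -0.09 over all genes tested. Alad, which joins aminolevulinate molecules into porphobilinogen, differed most: its levels were 7.97, 7.90 and 7.95 at 1 week and 6.90, 6.92 and 6.94 at 8 weeks. That is a difference of -1.02 ± 0.08 (adjusted p = 2.42e-08), a 2.03-fold lower level at 8 weeks with a wide gap between the ages. Urod, which trims the side chains of the first ring-shaped intermediate, lay at 7.48, 7.51 and 7.51 at 1 week and at 6.66, 6.79 and 6.78 at 8 weeks, a difference of -0.76 ± 0.08 (adjusted p = 7.63e-07).

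Fech, the ferrochelatase, was lower at 8 weeks by -0.60 ± 0.10 (adjusted p = 4.05e-05) on its brighter probe, which stands for it throughout, and by -0.19 ± 0.07 (adjusted p = 0.026) on its dimmer one. Cpox, the coproporphyrinogen oxidase that acts between the mitochondrial membranes, was lower by -0.52 ± 0.13 (adjusted p = 0.00158). Ppox, the oxidase that follows it, was lower by -0.37 ± 0.09 (adjusted p = 0.00157). The arrays of the ages did not overlap for any of the 7 enzymes, nor for 69.9% of all genes.

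Uros, which closes the ring, was lower at 8 weeks by -0.26 ± 0.11 (adjusted p = 0.0475), the weakest of the 6 calls. Leaving out any 1 of 14 of the 18 arrays raised the adjusted p of Uros above 0.05. It rose to 0.0516 (-0.30) without unirradiated 1-week replicate 2, the array with high muscle and cartilage markers. Without replicate 3 of that group it rose to as much as 0.203 (-0.18). The exceptions were unirradiated 1-week replicate 1, 1-week 6 h replicate 3 and 8-week 6 h replicates 1 and 3. The Uros call was also lost under 5 of 11 alternative settings. Alas2 went the other way, with levels of 7.67, 7.63 and 7.45 at 1 week and 7.70, 7.79 and 7.77 at 8 weeks. The Alas2 levels of the ages lay close together without overlapping, and the difference of 0.17 ± 0.08 did not pass the test (adjusted p = 0.0789, 95% interval -0.003 to 0.341). Leaving out 8-week 24 h replicate 3 left the Alas2 difference at 0.17 and gave an adjusted p of 0.0386. With quantile normalization the Alas2 difference was 0.34 (adjusted p = 0.000254).

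**Figure D1:**
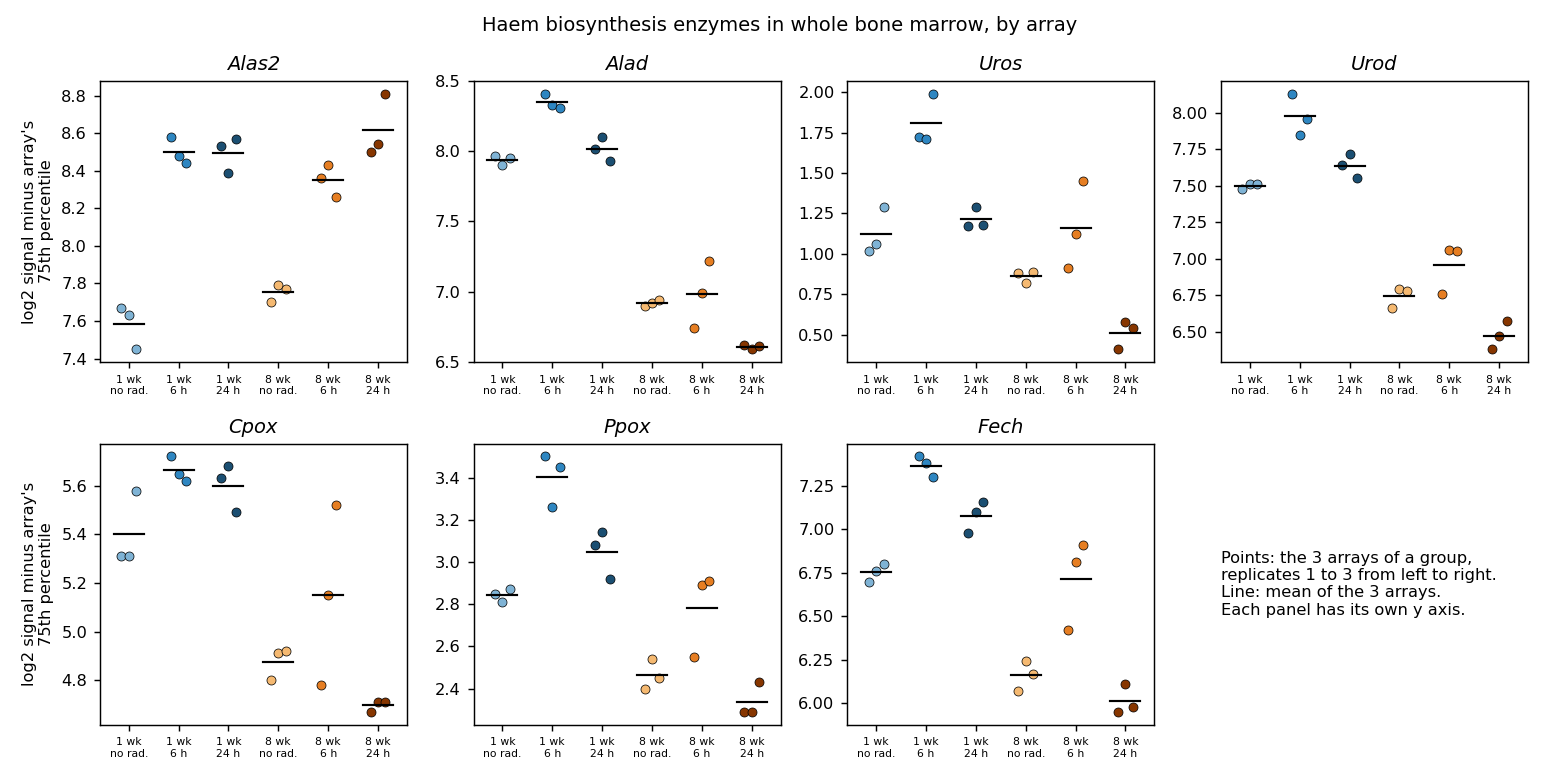
Level of each enzyme (y axis, log2 signal minus the array's 75th percentile, a separate scale for each gene) on the 18 arrays, grouped on the x axis by age in weeks (wk) and by condition (no rad.: unirradiated; 6 h and 24 h after 2 Gy), with points for replicates 1 to 3 and a line at their mean. Alas2 stands higher in all irradiated groups than in both unirradiated ones, while the other 6 enzymes (Fech by its brighter probe) peak at 6 h in 1-week mice and are lowest at 24 h in 8-week mice.

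The ages stayed apart after irradiation. At 6 h and again at 24 h, the same 6 enzymes were lower at 8 weeks than at 1 week, where 36 and 27.7% of all genes were lower and 64.3 and 61.3% differed in either direction. Alad differed by -1.37 ± 0.08 at 6 h (adjusted p = 8.25e-10) and by -1.41 ± 0.08 at 24 h (adjusted p = 4.89e-10). Urod differed by -1.03 ± 0.08 and -1.16 ± 0.08, and Fech by -0.65 ± 0.10 and -1.07 ± 0.10. The dimmer Fech probe gave smaller differences, -0.31 ± 0.07 and -0.50 ± 0.07. Cpox, Ppox and Uros lay between -0.51 and -0.65 at 6 h and between -0.70 and -0.90 at 24 h. Alas2 did not pass the test at either time, with -0.15 ± 0.08 at 6 h (adjusted p = 0.114, 95% interval -0.324 to 0.021) and 0.12 ± 0.08 at 24 h (adjusted p = 0.216, 95% interval -0.052 to 0.292).

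The comparison of irradiated with unirradiated marrow at 1 week asks how the enzymes stood 6 h and 24 h after the dose. At 6 h, 6 of the 7 enzymes rose and 0 fell, where 51.8% of all genes changed, 25.5% rising and 26.3% falling. The median difference was 0.57 for the enzymes and 0 for all genes tested. Alas2 rose from the unirradiated levels given above to 8.58, 8.48 and 8.44, by 0.92 ± 0.08 (1.89-fold, adjusted p = 2.08e-07). All 3 irradiated Alas2 levels were well clear of the unirradiated ones, and all 7 enzymes kept their groups apart, as 55.8% of all genes did.

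Uros rose at 6 h from levels between 1.02 and 1.29 to levels between 1.71 and 1.99, by 0.68 ± 0.11 (adjusted p = 8.66e-05). Fech rose from 6.70, 6.76 and 6.80 to 7.42, 7.38 and 7.30, by 0.61 ± 0.10 (adjusted p = 5.96e-05). Ppox rose by 0.57 ± 0.09 (adjusted p = 6.54e-05). Smaller rises were those of Urod, by 0.48 ± 0.08 (adjusted p = 0.000148), and Alad, by 0.41 ± 0.08 (adjusted p = 0.000572).

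Cpox missed the test at 6 h, with 0.26 ± 0.13 (adjusted p = 0.0887, 95% interval -0.002 to 0.529). Its unirradiated replicate 3, at 5.58, lay just under the lowest 6 h array, at 5.62, and the other unirradiated arrays were at 5.31. Without that replicate the Cpox difference was 0.35 (adjusted p = 0.0435). Leaving out 8-week 6 h replicate 1 or replicate 3, where Cpox was most spread, left the 1-week difference at 0.26 and gave adjusted p = 0.0191 and 0.0195.

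By 24 h at 1 week, Alas2 and Fech were the 2 enzymes still higher than in unirradiated marrow, where 36% of all genes changed and 18.4% rose. Alas2 stood at 8.53, 8.39 and 8.57, or 0.91 ± 0.08 above the unirradiated mean (1.88-fold, adjusted p = 3.16e-07). Between 6 h and 24 h Alas2 moved by -0.01 ± 0.08 (adjusted p = 0.967, 95% interval -0.178 to 0.167), and its arrays at those times overlapped. Fech stood at 6.98, 7.10 and 7.16, or 0.32 ± 0.10 above (adjusted p = 0.014), and its dimmer probe was 0.64 ± 0.07 above. The Fech call was lost without 1-week 24 h replicate 3 (0.29, adjusted p = 0.0616) and with the slide as a block (0.26, adjusted p = 0.0507), while within the slides that held both groups Fech was higher by 0.22 and 0.30.

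The other 5 enzymes did not pass the test at 24 h, with differences of 0.08 for Alad, 0.09 for Uros, 0.14 for Urod, 0.20 for Cpox and 0.21 for Ppox. The 95% intervals of these reached from -0.147 at the lowest, for Uros, to 0.465 at the highest, for Cpox. Ppox was the nearest to the threshold (adjusted p = 0.0821), and passed it without 1-week 24 h replicate 3 (0.27, adjusted p = 0.0477) or without 8-week 6 h replicate 1 (0.21, adjusted p = 0.0295). Set directly against 6 h, 5 enzymes were lower at 24 h, where 36.2% of all genes differed and 17.6% were lower: Uros by -0.60 ± 0.11, Ppox by -0.36 ± 0.09, Urod by -0.34 ± 0.08, Alad by -0.33 ± 0.08 and Fech by -0.29 ± 0.10. The dimmer Fech probe was at 0.004 (adjusted p = 0.972). On the brighter probe Fech (adjusted p = 0.0273) lost that call without 1-week 24 h replicate 1 or 2 or 1-week 6 h replicate 1 or 2, with adjusted p from 0.0539 to 0.112. Alas2 and Cpox, at -0.06 ± 0.13, did not pass that test.

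**Figure D2:**
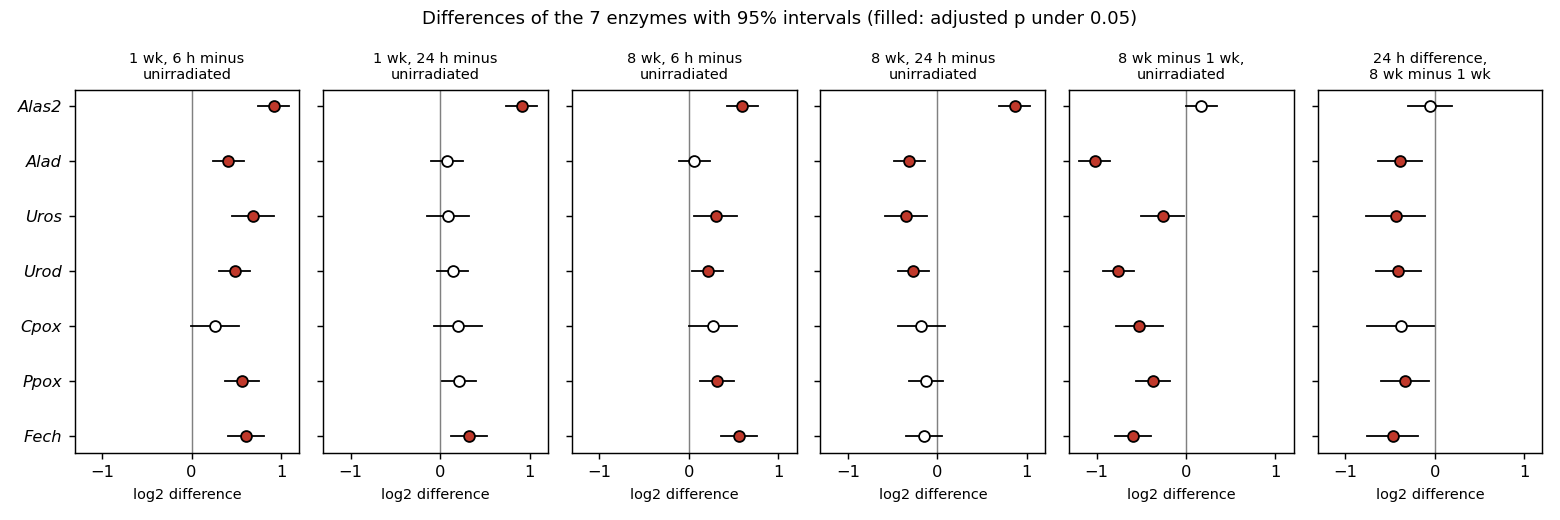
Difference of each enzyme on the x axis (log2, with its 95% interval from the limma fit) in 6 comparisons of group means of 3 arrays, with filled points for adjusted p under 0.05. Alas2 lies between 0.60 and 0.92 in all 4 comparisons with unirradiated marrow, whereas the other 6 lie at 0.26 to 0.68 at 6 h in 1-week mice and at -0.35 to -0.13 at 24 h in 8-week mice.

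In 8-week-old mice 5 of the 7 enzymes rose at 6 h and 0 fell, where 46% of all genes changed, 23.9% rising and 22.1% falling. The enzymes' median difference was 0.30, beside 0.02 over all genes tested. Alas2 rose to 8.36, 8.43 and 8.26, by 0.60 ± 0.08 (1.51-fold, adjusted p = 2.95e-05), with no overlap with its unirradiated levels. Fech rose from 6.07, 6.24 and 6.17 to 6.42, 6.81 and 6.91, by 0.56 ± 0.10 (adjusted p = 0.000227). Ppox rose by 0.32 ± 0.09 (adjusted p = 0.00853), Uros by 0.30 ± 0.11 (adjusted p = 0.0373) and Urod by 0.21 ± 0.08 (adjusted p = 0.0469).

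Replicate 1 of the 8-week 6 h group was the lowest of its group for every enzyme but Alas2. Its erythroid marker mean of 4.18 was also the lowest of the 3, in a group whose highest was 4.61, and the part of that in the enzymes' levels was not tested. Alad lay at 6.74, 6.99 and 7.22 in this group, on both sides of its unirradiated levels, and its difference of 0.06 ± 0.08 did not pass the test (adjusted p = 0.578). Cpox lay at 4.78, 5.15 and 5.52 and its difference of 0.27 ± 0.13 did not pass either (adjusted p = 0.0855). Without replicate 1 all 7 enzymes rose, Alad by 0.18 (adjusted p = 0.0339) and Cpox by 0.46 (adjusted p = 0.00171).

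The weaker calls at 6 h lay near the threshold, at adjusted p = 0.0373 for Uros and 0.0469 for Urod. Leaving out unirradiated 1-week replicate 1, an array outside the comparison, lost the Urod call (adjusted p = 0.055) with the difference unchanged at 0.21. Uros lost its call without any 1 of the 3 unirradiated 8-week arrays and without 8-week 6 h replicate 2 or 3, with a lowest value of 0.16 (adjusted p = 0.214) without replicate 3, and under 3 of 11 alternative settings. Urod, whose arrays overlapped, lost its call without any 1 of 12 arrays, with adjusted p from 0.0504 to 0.179, and under 9 of 11 alternative settings. Among these were the slide as a block (0.20, adjusted p = 0.118), quantile normalization (0.19, adjusted p = 0.0634), the authors' values (0.21, adjusted p = 0.0637) and no trend (0.21, adjusted p = 0.0624). Of the single-array omissions, Urod kept the call only without 1-week 6 h replicate 1 or 2, 1-week 24 h replicate 3, 8-week 6 h replicate 1 or 8-week 24 h replicate 1 or 3.

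At 24 h the 8-week marrow split the pathway: Alas2 was higher than in unirradiated marrow and 3 of the next enzymes were lower. Of all genes 57.8% changed, 38.3% upward and 19.5% downward, and their median was 0.12, against -0.18 for the 7 enzymes. Alas2 stood at 8.50, 8.54 and 8.81, 0.86 ± 0.08 above the unirradiated mean (1.82-fold, adjusted p = 2.25e-07). Alad fell from its unirradiated levels to 6.62, 6.59 and 6.61, by 0.31 on the log2 scale, with an SE of 0.08 (1.24-fold lower, adjusted p = 0.00379). The 3 Alad arrays at 24 h were the lowest of all 18.

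Uros, at 0.41, 0.58 and 0.54 after 0.88, 0.82 and 0.89 in unirradiated marrow, fell by 0.35 with an SE of 0.11 (adjusted p = 0.0131). Urod, at 6.38, 6.47 and 6.57, fell by 0.27 with an SE of 0.08 (adjusted p = 0.0111). Both lost the call without 8-week 24 h replicate 1, at -0.30 (adjusted p = 0.0567) for Uros and -0.22 (adjusted p = 0.0539) for Urod. The later enzymes were not called: Cpox was at -0.18 ± 0.13 (adjusted p = 0.231), Ppox at -0.13 ± 0.09 (adjusted p = 0.231) and Fech at -0.15 ± 0.10 (adjusted p = 0.199). The groups stayed apart for 5 of the 7 enzymes, as they did for 69.6% of all genes. With quantile normalization, which forces all arrays to the same distribution, all 7 passed, Alas2 upward and the other 6 downward.

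Set directly against 6 h, all 7 enzymes differed at 24 h in 8-week mice, where 49.4% of all genes differed, 32.9% higher and 16.4% lower at 24 h. Fech was lower by -0.70 ± 0.10 (adjusted p = 1.6e-05; on the dimmer probe -0.19 ± 0.07, adjusted p = 0.0369), Uros by -0.65 ± 0.11, Urod by -0.48 ± 0.08, Cpox by -0.45 ± 0.13, Ppox by -0.45 ± 0.09 and Alad by -0.37 ± 0.08. Alas2 alone of the 7 was higher, by 0.27 ± 0.08 (adjusted p = 0.0123), with its arrays at the times not overlapping. That Alas2 call was lost without 8-week 24 h replicate 3 (0.17, adjusted p = 0.0828) or 8-week 6 h replicate 3 (0.22, adjusted p = 0.0554), and with quantile normalization (0.13, adjusted p = 0.112). With background correction by normexp on the spot's median signal, a choice made after seeing the data, the Alas2 difference turned to -0.16 (adjusted p = 0.597), and its difference from unirradiated marrow was 0.56 (adjusted p = 0.135) at 6 h and 0.40 (adjusted p = 0.148) at 24 h.

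Whether the ages differed in their change was tested as the difference between the 8-week and the 1-week change. At 24 h that difference passed for 5 enzymes, all toward a lower value at 8 weeks, where 42.1% of all genes passed and 13.5% in that direction. It was -0.47 ± 0.14 for Fech (adjusted p = 0.0108; on the dimmer probe -0.31 ± 0.10, adjusted p = 0.023), -0.44 ± 0.16 for Uros (adjusted p = 0.0346), -0.41 ± 0.12 for Urod (adjusted p = 0.0114), -0.39 ± 0.12 for Alad (adjusted p = 0.0134) and -0.34 ± 0.13 for Ppox (adjusted p = 0.0424). For Cpox it was -0.38 ± 0.18 (adjusted p = 0.0972), which passed without 8-week 6 h replicate 1 or 3 (adjusted p = 0.0219 and 0.0222). Alas2 was at -0.05 ± 0.12 (adjusted p = 0.76), with a 95% interval from -0.293 to 0.194, but with quantile normalization it passed at -0.27 (adjusted p = 0.0278), as it did at 6 h (-0.41, adjusted p = 0.00665).

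Of those 5 calls, 2 were lost when certain single arrays were left out. Without unirradiated 1-week replicate 2, the array with high muscle and cartilage markers, 3 were left. Uros lost its call without any 1 of 7 arrays (unirradiated 1-week replicate 1 or 2, 1-week 24 h replicate 2 or 3, unirradiated 8-week replicate 1 or 3, 8-week 24 h replicate 1), at an adjusted p of up to 0.0815. Ppox lost its call without any 1 of 9 (all 3 unirradiated 1-week arrays, 1-week 24 h replicate 1 or 2, unirradiated 8-week replicate 2 or 3, 8-week 24 h replicate 1 or 2), at up to 0.104, and under 6 of 11 alternative settings, among them the authors' values (adjusted p = 0.0561), no filter on dim genes (0.0566) and no trend (0.0563). With the slide as a block only Urod kept its call, and the others had values of -0.36 for Alad (adjusted p = 0.0513), -0.33 for Fech (adjusted p = 0.0927), -0.34 for Ppox (adjusted p = 0.0878) and -0.30 for Uros (adjusted p = 0.0677).

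At 6 h the ages differed in the change of 1 enzyme, Alad, by -0.35 ± 0.12 (adjusted p = 0.0469), where 18.6% of all genes passed and 8.09% in that direction. The Alad call was lost without any 1 of 16 of the 18 arrays, with adjusted p up to 0.102, and under 9 of 11 alternative settings. Of the single-array omissions, it was kept only without 1-week 24 h replicate 3 or 8-week 6 h replicate 3. The Alas2 difference of -0.32 ± 0.12 did not pass (adjusted p = 0.0629), and passed without 8-week 24 h replicate 3 (-0.32, adjusted p = 0.0312). Uros, at -0.38 ± 0.16 (adjusted p = 0.0999), passed without 8-week 6 h replicate 3 (-0.53, adjusted p = 0.0126). Cpox was at 0.01 ± 0.18, Fech at -0.05 ± 0.14, Ppox at -0.25 ± 0.13 and Urod at -0.27 ± 0.12, none of them called.

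Over the 6 groups, the enzymes other than Alas2 were all highest in 1-week marrow at 6 h and all lowest in 8-week marrow at 24 h. For Fech this holds on the brighter probe: the dimmer was at 6.23 both at 6 h and at 24 h in 1-week marrow and lowest, at 5.40, in unirradiated 8-week marrow. Alad covered 1.74 on the log2 scale from the lowest to the highest group mean, a 3.35-fold range, Urod 1.51, Fech 1.36, Uros 1.30, Ppox 1.07 and Cpox 0.96. Alas2 covered 1.03, with its lowest mean, 7.58 ± 0.12 (SD, n = 3), in unirradiated 1-week marrow and its highest, 8.62 ± 0.17 (SD, n = 3), in 8-week marrow at 24 h. Ranked by mean, the irradiated groups of Alas2 followed each other with overlapping arrays in all 3 neighbouring pairs, and the step from the lowest of them to unirradiated 8-week marrow was 0.60 with no overlap. For Alad and Fech 2 of the 5 neighbouring pairs overlapped, for Urod 1, and for Cpox 4.

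Over the 18 arrays the 6 enzymes other than Alas2 correlated with one another at r = 0.83 to 0.98, and with Alas2 at r = -0.04 to 0.21. These r values describe 18 arrays that share their group differences and are not tests. By the highest r among all tested genes with a gene name, Alas2 ran nearest to Ccndbp1 (0.966), Mapk13 (0.963) and Ptges (0.963). Alad ran nearest to Samd14 (0.998), Runx1t1 (0.995) and Tlcd1 (0.993), and Urod to Ubac1 (0.993), Arrb1 (0.991) and Tspan33 (0.991). Fech ran nearest to Cdc25b (0.987), Dapk2 (0.986) and Dennd2c (0.984), Ppox to Marchf5 (0.986), Art4 (0.979) and Tspo2 (0.979), Cpox to Metap2 (0.973), Gypc (0.973) and Abcg2 (0.972), and Uros to Mcph1 (0.968), Kif18b (0.967) and Trim10 (0.966).

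The erythroid markers, mostly membrane and cytoskeletal proteins of red cells, moved with the enzymes other than Alas2. Of the 19, 18 rose and 0 fell at 6 h in 1-week mice (median 0.62), and 8 rose and 2 fell at 24 h (median 0.26). At 6 h in 8-week mice 14 rose and 1 fell (median 0.37), and at 24 h 1 rose and 14 fell (median -0.40). In unirradiated marrow 16 were lower and 2 higher at 8 weeks (median -0.52). Of all genes 25.5 and 18.4% rose at 6 h and 24 h in 1-week mice. In 8-week mice 23.9% of all genes rose at 6 h and 19.5% fell at 24 h, and 37.5% were lower at 8 weeks unirradiated. The mean level of the markers ran from 4.60 to 4.62 on the unirradiated 1-week arrays, 5.15 to 5.27 at 6 h and 4.81 to 4.88 at 24 h. At 8 weeks it ran from 4.10 to 4.15 unirradiated, 4.18 to 4.61 at 6 h and 3.73 to 3.81 at 24 h. Over the 18 arrays the marker mean had r = 0.94 to 0.98 with Alad, Uros, Urod, Cpox, Ppox and the brighter probe of Fech. With Alas2 it had r = 0.09. The arrays share their group differences, so these r values are not tests. The part of these markers in the enzymes' levels was not tested.

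Measured against that marker mean on each array, Alas2 differed most between groups. Alas2 minus the marker mean was 2.97 ± 0.12 (SD, n = 3) in unirradiated 1-week marrow, 3.29 ± 0.06 at 6 h and 3.65 ± 0.13 at 24 h. At 8 weeks it was 3.62 ± 0.07 unirradiated, 3.90 ± 0.26 at 6 h and 4.85 ± 0.13 at 24 h. The largest of these steps was in 8-week mice at 24 h, where Alas2 differed from unirradiated marrow by 0.86 and the marker mean by -0.36, with no overlap of the groups. These differences from the marker mean were not tested. Alad minus the marker mean was 3.33 ± 0.05 in unirradiated 1-week marrow and 2.79 ± 0.03 at 8 weeks, with no overlap. Fech minus the marker mean lay between 2.03 and 2.27 over the 6 groups on the brighter probe, though above unirradiated marrow by 0.24 at 6 h and 0.22 at 24 h in 8-week mice with no overlap. On the dimmer probe it ran from 0.98 in unirradiated 1-week marrow to 1.97 in 8-week marrow at 24 h.

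**Figure D3:**
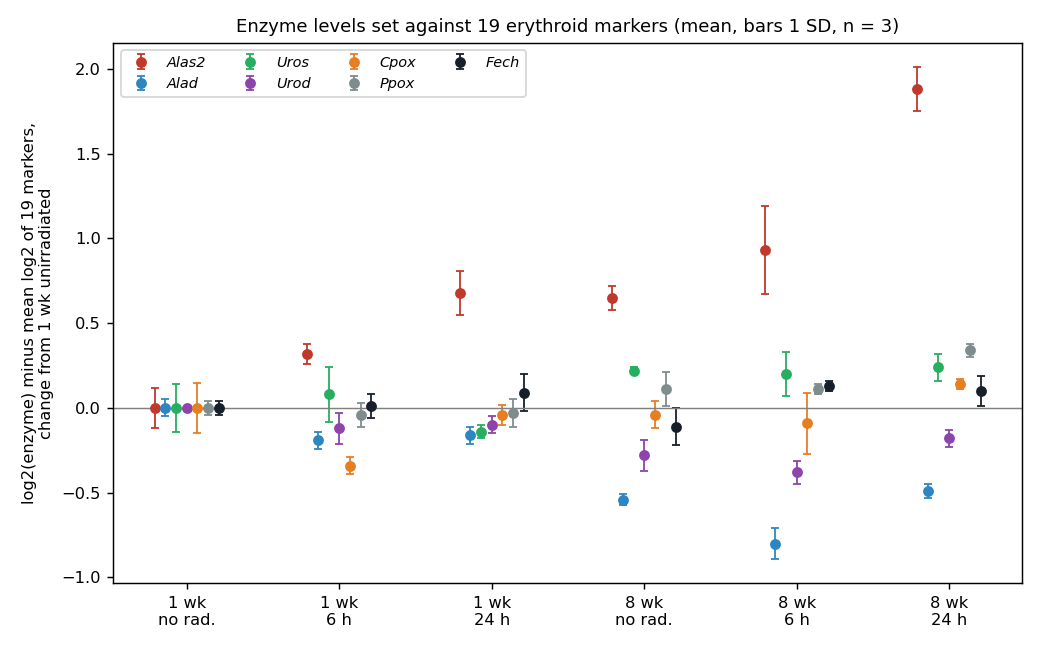
For each enzyme, the log2 level minus the mean log2 level of 19 erythroid markers on the same array, shown as the change of the group mean from unirradiated 1-week marrow (y axis, log2; bars are 1 SD of 3 arrays) in the 6 groups on the x axis (wk: weeks of age; no rad.: unirradiated). Alas2 is farthest from its start, at 2.97 in unirradiated 1-week marrow and 4.85 in 8-week marrow at 24 h, and Alad lies lowest in all 3 groups of 8-week mice.

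The globin genes, which encode the protein that holds the haem, went the way of Alas2. Of the 4 tested (Hba-a1, Hbb-bt, Hbb-bh1 and Hbb-y), 3 rose at 6 h in 1-week mice and all 4 in each of the other 3 comparisons with unirradiated marrow. Of all genes 25.5 and 18.4% rose at 6 h and 24 h in 1-week mice, and 23.9 and 38.3% in 8-week mice. Hbb-bt rose by 0.48 ± 0.10 and 0.45 ± 0.10 at 6 h and 24 h in 1-week mice and by 0.40 ± 0.10 and 0.51 ± 0.10 in 8-week mice. Between the unirradiated ages 0 of the 4 differed by limma, where 64.9% of all genes did, and at an unadjusted p under 0.05 also 0. Globin genes share near-identical stretches, so a globin probe may also bind RNA of another globin gene. Bpgm, which makes the compound that loosens oxygen from haemoglobin, was the 1 erythroid marker that rose at 24 h in 8-week mice, by 0.39 ± 0.10, and it also rose in the other 3 comparisons with unirradiated marrow, by 0.86, 1.15 and 0.65.

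Alas1, the synthase of other cells, is not among the 7. It was at -0.11 ± 0.07 at 6 h in 1-week mice (adjusted p = 0.204) and then rose, by 0.19 ± 0.07 at 24 h (adjusted p = 0.05, just under the threshold before rounding) and in 8-week mice by 0.28 ± 0.07 at 6 h and 0.68 ± 0.07 at 24 h (adjusted p = 8.3e-07). It was also higher at 8 weeks than at 1 week in unirradiated marrow, by 0.56 ± 0.07 (adjusted p = 3.72e-06), the opposite direction to Alad, Uros, Urod, Cpox, Ppox and Fech.

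Carriers and partners of the mitochondrial steps were mixed. Of 16 tested, 9 rose and 2 fell at 6 h in 1-week mice and 5 rose and 1 fell at 24 h. In 8-week mice 5 rose and 2 fell at 6 h and 5 rose and 5 fell at 24 h. Of all genes 25.5% rose and 26.3% fell at 6 h in 1-week mice, and 18.4% rose at 24 h. In 8-week mice 23.9% of all genes rose and 22.1% fell at 6 h, and 38.3% rose and 19.5% fell at 24 h. Between the unirradiated ages 12 of the 16 were lower and 1 higher at 8 weeks (median -0.37), where 37.5% of all genes were lower. Slc25a39, a mitochondrial carrier, rose in all 4 comparisons with unirradiated marrow, by 0.73, 0.84, 0.56 and 0.76. Slc25a38, the glycine carrier that supplies the aminolevulinate synthases, fell at 24 h in 8-week mice by 0.60 with an SE of 0.08 (adjusted p = 1.47e-05), in the group where Alas2 was highest.

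Iron supply genes showed no single direction. Of 12 tested, 3 rose and 2 fell at 6 h and 4 rose and 2 fell at 24 h in 1-week mice. In 8-week mice 4 rose and 3 fell at 6 h and 5 rose and 3 fell at 24 h. Of all genes 25.5% rose and 26.3% fell at 6 h in 1-week mice, and 18.4% rose at 24 h. In 8-week mice 23.9% of all genes rose and 22.1% fell at 6 h, and 38.3% rose and 19.5% fell at 24 h. At 24 h in 8-week mice the iron supply counts lay near these shares. Ncoa4, which delivers ferritin for breakdown, rose in all 4 comparisons with unirradiated marrow, by 0.62, 0.65, 0.62 and 0.52. Tfrc, the receptor that brings in iron on transferrin, rose at 6 h in 1-week mice by 0.66 ± 0.15 (adjusted p = 0.00154). Slc40a1, the iron exporter ferroportin, rose at 24 h by 0.71 ± 0.06 in 1-week mice and 0.95 ± 0.06 in 8-week mice.

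Of 8 genes of haem export and breakdown, 2 rose and 1 fell at 6 h in 1-week mice, a share near that of all genes, and 5 rose and 1 fell at 24 h, where 18.4% of all genes rose. In 8-week mice 6 rose and 0 fell at each time, where 23.9% of all genes rose at 6 h and 38.3% at 24 h. The 24 h count includes Flvcr2, a paralogue of the haem exporter Flvcr1, which was well above background on 0 of 3 unirradiated 8-week arrays and on 2 of 3 at 24 h. Hmox1, the haem oxygenase that opens the ring, was at 2.95 ± 0.10 (SD, n = 3) in unirradiated 1-week marrow and at 2.96 ± 0.08 at 6 h. It rose by 1.78 ± 0.09 at 24 h in 1-week mice (adjusted p = 5.41e-10) and by 1.49 ± 0.09 and 2.16 ± 0.09 at 6 h and 24 h in 8-week mice. Macrophage markers rose where Hmox1 rose, with 11 of 12 higher at 24 h in 1-week mice, and 11 at 6 h and 12 at 24 h in 8-week mice. At 6 h in 1-week mice 10 of 12 were lower, where 26.3% of all genes fell and Hmox1 stayed near its unirradiated level. The part of these markers in the Hmox1 levels was not tested.

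Of 13 tested regulators of red cell genes and of haem, 7 rose and 1 fell at 6 h in 1-week mice. At 24 h 2 rose and 1 fell. In 8-week mice 5 rose and 1 fell at 6 h and 2 rose and 3 fell at 24 h. Of all genes 25.5% rose and 26.3% fell at 6 h in 1-week mice, and 18.4% rose at 24 h. In 8-week mice 23.9% of all genes rose and 22.1% fell at 6 h, and 38.3% rose and 19.5% fell at 24 h. Between the unirradiated ages 6 of the 13 were lower and 2 higher at 8 weeks, where 37.5% of all genes were lower. The median difference of these regulators was -0.16, beside -0.09 over all genes tested. The higher ones were Bach1, by 0.39 ± 0.13, and Nfe2l2, by 0.25 ± 0.08. Gata1, the main red cell GATA factor, was lower at 8 weeks by -0.99 ± 0.08 (adjusted p = 2e-08), Gfi1b, a repressor of the same lineage, by -1.43 ± 0.12 and Epor, the erythropoietin receptor, by -0.90 ± 0.10. Eif2ak1, the kinase that slows globin translation when haem is short, rose at 6 h by 0.63 ± 0.09 in 1-week mice and 0.42 ± 0.09 in 8-week mice. Klf1 fell at 24 h in 8-week mice by 0.36 with an SE of 0.12 (adjusted p = 0.0221).

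**Figure D4:**
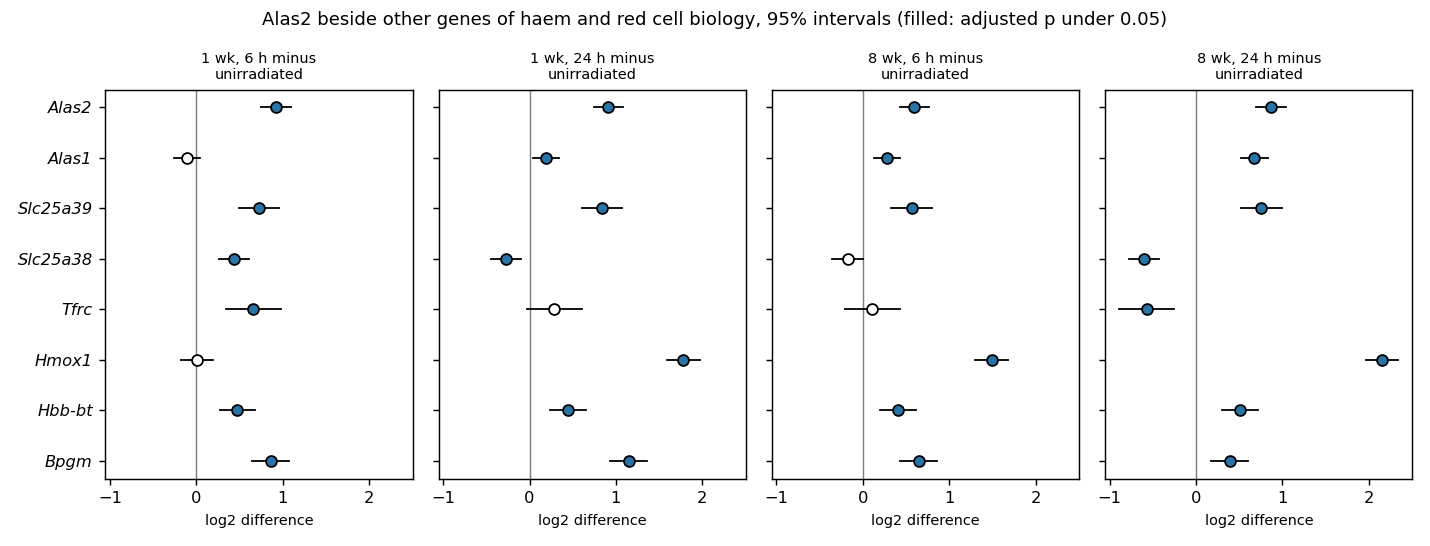
Difference from unirradiated marrow on the x axis (log2, with 95% interval) for Alas2 and 7 other genes of haem and red cell biology in the 4 comparisons of irradiated with unirradiated marrow, with filled points for adjusted p under 0.05. Alas2, Slc25a39, Hbb-bt and Bpgm are higher in all 4, whereas Slc25a38 and Tfrc are lower at 24 h in 8-week mice.

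The probes of Fech differed most at 24 h in 8-week mice. On the dimmer probe its levels were 5.59 ± 0.04 (SD, n = 3) in unirradiated 1-week marrow, 6.23 ± 0.11 at 6 h and 6.23 ± 0.10 at 24 h, and 5.40 ± 0.09, 5.92 ± 0.08 and 5.73 ± 0.11 in the same order at 8 weeks. This dimmer Fech probe was higher by 0.64 at 6 h and at 24 h in 1-week mice and by 0.53 at 6 h in 8-week mice. At 24 h in 8-week mice it was higher by 0.34 (adjusted p = 0.000811), where the brighter Fech probe was at -0.15. Dimmer minus brighter averaged -1.16 in unirradiated 1-week marrow and -0.28 in 8-week marrow at 24 h, and the range of the latter over 3 arrays, -0.40 to -0.12, lay above every other group's. The direction of Fech at 24 h in 8-week mice therefore depends on the probe, and the positions of the probes in the transcript were not used here.

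**Figure D5:**
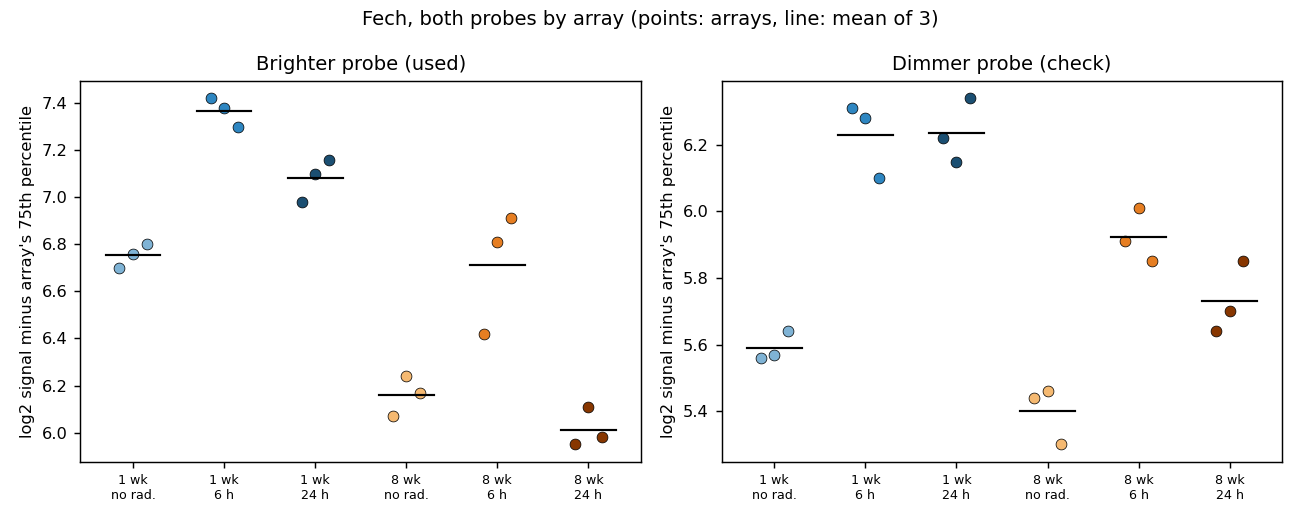
Level of Fech (y axis, log2 signal minus the array's 75th percentile, a separate scale for each probe) on the 18 arrays for the brighter probe, used throughout, and the dimmer one, with points for arrays and a line at the mean of 3 in each group on the x axis (wk: weeks of age; no rad.: unirradiated). At 24 h in 8-week mice the brighter probe has a mean of 6.01 beside 6.16 in unirradiated marrow, and the dimmer 5.73 beside 5.40.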

How the data were processed

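Each of 18 arrays held 1 Cy3-labelled sample, and groups were taken from the labels. The members and gene lists were chosen with earlier results of these data known, and genes of the other lists were named by smallest adjusted p. Intensity values per spot came from the deposited array files, after background subtraction by Agilent Feature Extraction (version 11.5.1 per the submitters' processing notes, an older release per the file headers) and not scaled between arrays. The deposited series matrix holds log2 values; it matched the array values shifted by the 75th percentile and centred on each probe's median, with r = 1 on every array, and was an alternative. Flags per spot (well above background, saturated, outlier, scan used) are 0 or 1 in the deposited files. The bright spots of Alas2, Alad, Urod and Fech took their value from the low-gain scan on 18 arrays and those of Cpox on 11.

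Control and outlier spots (77 to 123 per array) were left out, and log2 signal minus the array's 75th percentile was averaged per probe. Accessions were paired with mouse symbols through RefSeq, which named 24844 probes and left 16330 unnamed. The brightest probe stood for a gene, and genes were tested where 1 or more groups had all 3 arrays well above background. Differences came from limma 3.58.1 in R 4.3.3 with 6 group means, an intensity trend, 12 residual and 4.32 prior degrees of freedom, two-sided p-values and Benjamini-Hochberg adjustment within each of 11 comparisons. The code was tested on simulated data. Alternatives were quantile normalization, the 75th percentile over well-above-background probes only, normexp, the deposited log2 values, filters, the mean over probes, no trend, only the compared groups, slide and replicate number as blocks, and leaving out each array. The arrays lie on 5 slides of 1 scan day. The number of arrays limits the precision.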

Additional observations from a re-analysis of the deposited data

Results flagged for a closer look

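The change after irradiation differed between the ages for several enzymes by a test of that difference in the limma fit, taken as the 8-week minus the 1-week change. At 24 h the difference was -0.47 for Fech, -0.44 for Uros, -0.41 for Urod, -0.39 for Alad and -0.34 for Ppox, and at 6 h it was -0.35 for Alad. The mean of the 19 erythroid markers differed in the same direction at 24 h, being 0.24 above unirradiated marrow at 1 week and at -0.36 at 8 weeks, and its part in these values was not tested. For Fech the dimmer probe gave a difference of -0.31 at 24 h. The Alad call at 6 h was lost without any 1 of 16 of the 18 arrays. With the slide as a block only Urod kept its call at 24 h, and normexp on the spot's median signal lost all of these calls.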

How the results depend on the processing

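The 7 enzymes in 11 comparisons gave 77 results, of which 53 were called. The planned normexp setting was not run as written, since the files used here hold another column, and normexp on the spot's median signal was added after seeing the data. It left 2 enzymes called at 6 h and 1 at 24 h in 1-week mice, 0 at 6 h in 8-week mice, 1 between the unirradiated ages, 0 and 0 for the difference in change at 6 h and 24 h, and 1 for 24 h against 6 h in 1-week mice. Beside the reversal that follows it lost 28 of the 53 calls and gained 0. It turned Alas2 at 24 h against 6 h in 8-week mice to -0.157. With the slide as a block the counts were 1 at 24 h in 1-week mice and 0 and 1 for the difference in change at 6 h and 24 h. Without the filter on dim genes, and in fits of only the groups compared, 3 enzymes were called at 6 h in 8-week mice and 0 for the difference in change at 6 h. Fits of only the groups compared also called Cpox at 6 h in 1-week mice (adjusted p = 0.0348), at 24 h in 8-week mice (0.0102) and in the difference in change at 24 h (0.0113). Quantile normalization called 7 at 24 h in 8-week mice, and made the share of higher among called genes there 59.6% in place of 66.2%. For the difference in change at 6 h, scaling on probes well above background gave 2, and the authors' values, the mean over probes, no trend and the replicate block gave 0. The dimmer Fech probe gave 0.336 at 24 h in 8-week mice and 0.004 for 24 h against 6 h in 1-week mice. The causes of these changes were not tested.

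Leaving out 1 array at a time gave 3 to 7 enzymes at 6 h and 2 to 4 at 24 h in 8-week mice, and 0 to 2 and 3 to 6 for the difference in change at 6 h and 24 h. Whether the replicate number pairs the arrays was not decided, since the check had no chance level beside it. Among 45 pairs of arrays with the same number the deviations correlated at r = -0.27 to 0.32, with a median of -0.015. Of these pairs 8 were over 0.1, and 9 of 18 arrays correlated best with their own number. The replicate block lost 3 of the 77 results and changed no other call: Alad at 6 h (adjusted p = 0.0623) and Ppox at 24 h (0.0526) in the difference in change, and Urod at 6 h in 8-week mice (0.0563). In the 9 comparisons of 2 groups, every called difference kept its sign within slides that held both groups. Where the arrays of the groups did not overlap, this could not come out otherwise. Among these calls, only Urod at 6 h in 8-week mice came from overlapping groups. Only 24 h against unirradiated marrow at 1 week and 24 h against 6 h at 8 weeks had 2 such slides. The other comparisons had 1, so there the check set 1 array against 1 array. The differences in change between ages were not computed within slides. Alas2 stayed called in its 4 comparisons with unirradiated marrow whichever array was left out.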
